A study of Mus musculus with 11 samples.

Results

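The 9 genes described here, Cux1, Cux2, Rorb, Tle4, Sox5, Zfpm2, Bcl11b, Etv1 and Bcl11a, encode transcription factors and co-factors that define the layers of the cerebral cortex. They were chosen by name, as 9 of the 21755 protein-coding genes on chromosomes 1 to 19 and X of the GENCODE M21 annotation. H3K27me3 was read from CUT&Tag peaks lying over each gene and 10 kb either side of it, and cortex (CTX) was compared with the medial (MGE), caudal (CGE) and lateral (LGE) ganglionic eminences of the embryonic mouse forebrain. All groups were wild-type C57BL/6J embryos without treatment or transgene. The labels' protocol names embryonic days 12.5 and 14.5 without assigning them to samples, whereas the study's text gives the earlier day for these libraries. There were 11 samples, 2 of MGE and 3 each of CGE, LGE and CTX. Each region with 3 samples has a pair under the same replicate number, and the study describes 2 biological replicates per region, so not every sample may be a separate replicate. Tissue was pooled from several embryos, and the cortex dissected was the somatosensory area. The same protocol speaks of mixing nuclei from the regions in equal amounts, but each sample carries the label of 1 region and is treated here as that region.

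The authors called broad peaks on the merged samples of each region, so every value below is 1 number per region with no replicate error. No test was possible, since 1 list against 3 could not go below an exact permutation p of 0.25. Differences are therefore described by size, beside the same measure over all genes. The lists held 18785 peaks in CTX, 15384 in MGE, 19196 in CGE and 16851 in LGE, covering 31.2, 24.5, 32.9 and 26.4 Mb. The lists give no read count for single peaks. The read totals in the study's methods ran in the same order as the covered sequence, highest in CGE, then CTX, LGE and MGE, and the part of read number in the differences below was not tested. A base is called covered when it lies under a peak, and an uncovered base is one where no peak passed the caller's threshold, not one shown to lack the mark. In dissected tissue a smaller share of cells with the mark and less of the mark per cell cannot be told apart. Of 11 genes that the study places in particular regions, 8 had fewer covered bases where they are placed by any margin and 5 by at least 1000 bases. Neurod6, Dlx2 and Gad1 differed by only 82 to 163 bases. Over the 12122 protein-coding genes with a covered base in any list, the shares lowest in 1 list alone differed. They were 33.2% for MGE, 18.4% for LGE, 17.2% for CTX and 6.09% for CGE. CTX alone was highest in 30.1%, the share to set beside Dlx2 and Gad1, which are placed in the eminences. Of the 5 placed in CTX, 3 were lower there by at least 1000 bases, as were 1.83% of all protein-coding genes. They were Neurog2, Lhx2 and Emx1, a dorsal progenitor gene, with 5.45 kb in CTX against 10.6, 10.4 and 9.37 kb in MGE, CGE and LGE. Lhx6, Sp8 and Neurod2 were not lower where they are placed.

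H3K27me3 is the histone mark laid down by the Polycomb repressive complex and is known for covering the starts of developmental regulators in tissues where they are silent. Projection neurons of the cortex arise from dorsal progenitors and settle in layers with distinct targets, and the factors described here are used to tell those layers apart. The ganglionic eminences give rise mainly to inhibitory interneurons and to neurons of the striatum, and some of these factors, such as Bcl11b, also act there.

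The 9 genes did not move together between cortex and the eminences. Tle4 alone had less covered sequence in CTX than in every eminence, and Cux2 and Bcl11a had more. The remaining 6 genes had CTX within, or close to, the range of the eminences. A gene was counted as lower or higher in CTX only when CTX lay at least 1000 bases outside the range of MGE, CGE and LGE. By this rule 1 of 9 was lower, where the share over all protein-coding genes was 1.83%, and 2 of 9 were higher, where it was 3.72%. The windows of these genes are long, from 111 kb for Etv1 upward, and among the 2769 genes with windows at least that long the shares were 5.42% and 13%. Counting differences of any number of bases, Tle4 was again the only lower gene (9.59% of all genes and 15.7% of those with long windows), and Cux1 joined Cux2 and Bcl11a among the higher ones (16.8% and 28.5%). Every one of the 9 genes had a covered base in some list, as did 55.7% of all genes and 80% of those with long windows. All but Etv1 had one in each of the 4 lists, as did 36.1% and 57.9%. The median difference, CTX minus the mean of the eminences in percent of the window covered, was -0.135 points over the 9 genes and 0 points over all genes and over those with long windows. That median was 0.150 points when CGE was left out of the eminences, so its sign rested on the CGE list.

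**Figure D1:**
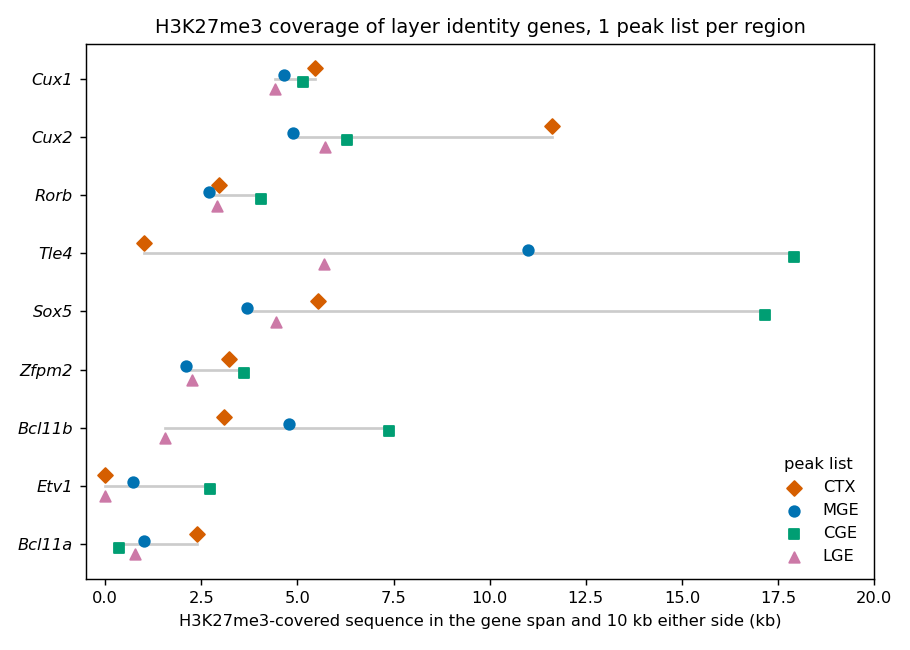
Covered sequence in kb (horizontal axis) for each gene (vertical axis), over the gene span and 10 kb either side; each symbol is the value of 1 peak list and the grey line joins the lowest to the highest. CTX is far to the left of the eminences for Tle4 (1.01 kb against 5.68 to 17.9 kb) and far to the right for Cux2 (11.6 kb against 4.87 to 6.28 kb).

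Tle4, a co-repressor of the Groucho family that marks corticothalamic neurons of the deep layers, had the largest difference between CTX and the mean of the eminences, -10.51 kb, although Cux2 lay further outside the range of the eminences. The gene (chr19:14448150-14598051, minus strand, mm10) had 1.01 kb covered in CTX, 10.985 kb in MGE, 17.9 kb in CGE and 5.68 kb in LGE. CTX was thus below all eminences, and the lowest eminence, LGE, held 5.60 times as much as CTX. CTX had 1 peak in the window, MGE 7, CGE 13 and LGE 4. Of all protein-coding genes, 34 had CTX as far below the nearest eminence as Tle4, or 0.156%. Of these 22 had long windows, or 0.795% of the genes with such windows. With peaks of a q-value under 0.001 alone, Tle4 had no covered base in CTX and 8.35, 15.0 and 2.88 kb in MGE, CGE and LGE.

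The marked stretches of Tle4 fell into 14 loci, a locus being peaks of any list that overlap. The locus just upstream of the gene was found in all 4 lists, but it was narrower in CTX, where it ran from 1.01 kb upstream to the 5′ end and covered 1015 bases. In MGE, CGE and LGE it reached back to 3.19, 3.47 and 3.04 kb upstream and covered 2927, 3312 and 2875 bases. The CTX peak had a −log10 q of 2.02, and those of MGE, CGE and LGE had 3.50, 5.59 and 6.70. The other 13 loci, 12 of them in introns and 1 beyond the 3′ end in MGE, had no CTX peak. A single intronic locus, 97.3 to 99.3 kb from the 5′ end, was shared by all the eminences, with 2003 bases in MGE, 1809 in CGE and 359 in LGE. Its peak was weak in LGE, with a −log10 q of 1.50, where MGE had 4.54 and CGE 8.96. Between the eminences the other intronic loci differed: 5 were found in CGE alone, 4 in MGE and CGE, and 2 in CGE and LGE. No exon of Tle4 outside the start window lay under a peak in any list.

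Parts of the upstream and the shared intronic loci are shown because they hold the stretch marked in every region and the stretch marked in the eminences without CTX. The sequences are from RefSeq GRCm38, 5′ to 3′ along the gene, with each CG dinucleotide in capitals. The upstream stretch (chr19:14598314-14598613, minus strand) lies just before the gene and holds 27 CG, and the intronic stretch (chr19:14499120-14499419, minus strand) holds 2.
Tle4 upstream: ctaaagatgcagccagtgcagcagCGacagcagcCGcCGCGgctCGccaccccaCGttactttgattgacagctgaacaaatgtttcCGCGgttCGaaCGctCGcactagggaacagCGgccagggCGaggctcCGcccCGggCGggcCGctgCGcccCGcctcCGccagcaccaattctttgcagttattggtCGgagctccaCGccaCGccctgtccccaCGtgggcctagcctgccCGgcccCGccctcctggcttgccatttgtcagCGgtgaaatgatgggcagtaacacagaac
Tle4 intron: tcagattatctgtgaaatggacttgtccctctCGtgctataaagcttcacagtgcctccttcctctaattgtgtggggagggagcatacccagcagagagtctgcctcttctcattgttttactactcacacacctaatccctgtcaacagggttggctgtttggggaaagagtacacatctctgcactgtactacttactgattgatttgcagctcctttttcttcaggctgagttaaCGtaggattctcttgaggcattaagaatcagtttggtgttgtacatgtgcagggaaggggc
Over 32619 RefSeq promoter sequences of the same length, 300 bases, the median was 7 CG. As many as 27 were found in 15.6% of them, and 2 or more in 86.1%.

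Cux1 and Cux2 encode cut-like homeodomain factors of upper-layer neurons, and they differed from each other. Cux2 (chr5:121856366-122050102, minus strand) had 11.6 kb covered in CTX, 4.87 kb in MGE, 6.28 kb in CGE and 5.72 kb in LGE, so CTX held 1.85 times the highest eminence. The peaks numbered 11 in CTX, 5 in MGE, 6 in CGE and 6 in LGE. As large a distance of CTX above the nearest eminence was found in 82 protein-coding genes, or 0.377%. Of these 72 had long windows, or 2.60% of the genes with such windows. The Cux2 call ended when each list was cut to the same total of covered bases, which left 5.63 kb in CTX, 4.87 kb in MGE, 2.74 kb in CGE and 5.29 kb in LGE.

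The excess in Cux2 came from 6 loci found in CTX alone, all inside the gene. The widest, 14.9 to 17.0 kb and 83.5 to 85.5 kb from the 5′ end, covered 2025 and 2008 bases, with −log10 q of 4.15 and 2.78. The next, at 157 to 159 kb, covered 1541 bases with a −log10 q of 1.89. The remaining 3 covered 310 to 378 bases each, with 1.34 to 1.67. Only the locus at 14.9 to 17.0 kb had a q-value under 0.001. With such peaks alone Cux2 had 5.63 kb in CTX and 3.57, 3.65 and 3.09 kb in MGE, CGE and LGE, and still counted as higher in CTX. Against these, 4 loci were shared by all lists. Among the shared loci was the strongest Cux2 peak of every list, which began 0.725 to 0.970 kb inside the gene and ended 2.54 to 2.62 kb inside it. It covered 1789 bases in CTX, 1828 in MGE, 1691 in CGE and 1570 in LGE. The first kilobases of Cux2 were therefore marked alike in all regions by extent, and the regions parted in the introns further on. The antisense gene Gm15637 overlaps this shared locus, and the mark does not tell which of the genes it belongs to.

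A shared and a CTX-only stretch of Cux2 are shown for this contrast. The shared stretch (chr5:122048590-122048889, minus strand) holds 12 CG, and the stretch marked in CTX alone (chr5:122034005-122034304, minus strand) holds 3.
Cux2 first kilobases: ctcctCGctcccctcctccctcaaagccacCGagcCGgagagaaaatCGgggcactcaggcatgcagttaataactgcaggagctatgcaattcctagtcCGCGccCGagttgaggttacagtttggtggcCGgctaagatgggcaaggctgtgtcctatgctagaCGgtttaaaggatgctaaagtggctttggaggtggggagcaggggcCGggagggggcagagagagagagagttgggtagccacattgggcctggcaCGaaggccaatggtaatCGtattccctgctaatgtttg
Cux2 intron: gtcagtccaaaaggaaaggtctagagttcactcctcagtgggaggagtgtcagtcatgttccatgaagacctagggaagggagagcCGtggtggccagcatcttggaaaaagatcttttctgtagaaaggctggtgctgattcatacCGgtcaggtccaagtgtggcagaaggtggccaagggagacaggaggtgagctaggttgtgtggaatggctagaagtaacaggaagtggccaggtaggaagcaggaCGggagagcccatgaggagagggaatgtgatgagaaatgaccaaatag
Of the RefSeq promoter sequences, 39.9% had as many CG as the former and 77.0% as many as the latter.

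Cux1 (chr5:136248135-136567490, minus strand) had 5.45 kb in CTX, 4.66 kb in MGE, 5.14 kb in CGE and 4.42 kb in LGE, and CTX lay 0.312 kb above the highest eminence. None of this lay inside the 319 kb gene. A peak of 3186 to 3318 bases lay between 3.66 and 0.178 kb upstream in every list, and it ranked high in strength, at the 75.9th, 77.7th, 83.1st and 83.1st percentile of −log10 q within the CTX, MGE, CGE and LGE lists. The other peak, of 1133 to 2130 bases, lay beyond the 3′ end of Cux1, within the neighbouring gene Sh2b2 and near the 5′ end of that gene. It covered 2130 bases in CTX and 1835 in CGE, the highest eminence, where the upstream peak covered 3318 and 3301. Most of the excess of CTX for Cux1 thus lay in the peak within Sh2b2.

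Rorb, a nuclear receptor that marks neurons of the granular layer, carried 1 peak in every list, at its start. The gene (chr19:18930605-19111196, minus strand) had 2.95 kb covered in CTX, 2.71 kb in MGE, 4.05 kb in CGE and 2.91 kb in LGE. CTX thus lay between MGE and CGE and close to LGE. The peak began 0.617, 0.711 and 0.660 kb inside the gene in CTX, MGE and LGE, but 0.474 kb before it in CGE, so only there was the annotated 5′ end itself covered. The start of shorter protein-coding transcripts of Rorb, 110 kb further on, was uncovered in every list. The CTX peak of Rorb was the strongest of any of the 9 genes relative to its own list, at the 85.7th percentile of −log10 q.

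Sox5, a SoxD factor of deep-layer and subplate neurons, had 5.53 kb covered in CTX, 3.69 kb in MGE, 17.2 kb in CGE and 4.44 kb in LGE. CTX lay between LGE and CGE, and CGE stood apart with 13 peaks where CTX had 4, MGE 4 and LGE 3. The gene is the longest of the 9, at 954 kb (chr6:143828425-144781977, minus strand), and 9 of its 14 loci were found in 1 list, as were 38.7% of all loci of the lists. The difference of CTX from the mean of the eminences was -2.90 kb. CTX lay 1461.5 bases above that mean when CGE was left out, where Sox5 counted as higher in CTX, and 684 bases above it in lists of equal covered bases. A locus 327 to 329 kb inside the gene was in all lists, with 1024 bases in CTX, 334 in MGE, 1459 in CGE and 1683 in LGE. The other CTX peaks inside Sox5 overlapped the antisense gene Sox5os2, that at 297 kb wholly and that ending at 302 kb only in part. The peak that began 297 kb from the 5′ end was shared with CGE and LGE and the peak that ended at 302 kb with CGE, and MGE had neither.

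At the start of Sox5 the order was different. Within 2 kb either side of the annotated 5′ end, 1215 bases were covered in CTX, 2696 in MGE, 3281 in CGE and 2227 in LGE, so that CTX was the lowest by 1012 bases. The CTX peak stopped 0.484 kb before the 5′ end, whereas the peaks of the eminences ran past it, to 1.09, 1.53 and 0.524 kb inside in MGE, CGE and LGE. The CTX peak had a −log10 q of 11.3 and those of MGE, CGE and LGE had 5.47, 21.4 and 15.2. The transcripts that start there are not annotated as protein-coding. Protein-coding transcripts of Sox5 start near 572 kb and 835 kb further on. Around the former 334 bases were covered in MGE and 1061 in CGE and none in CTX or LGE, and around the latter none were covered in any list.

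The stretch just before the 5′ end of Sox5 (chr6:144781978-144782277, minus strand) is shown because it was marked in the eminences and not in CTX. It holds 18 CG, as many as 29.9% of the promoter sequences do, and it includes a run of GA repeats near its end.
Sox5 upstream: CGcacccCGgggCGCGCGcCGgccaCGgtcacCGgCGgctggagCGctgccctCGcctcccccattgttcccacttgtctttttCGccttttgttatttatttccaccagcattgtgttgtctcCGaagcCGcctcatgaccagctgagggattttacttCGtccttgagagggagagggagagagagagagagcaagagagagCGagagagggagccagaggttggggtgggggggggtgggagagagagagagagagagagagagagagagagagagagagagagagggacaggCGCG

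Zfpm2, a zinc-finger co-factor of GATA factors that is found in corticothalamic neurons, also had a single start peak. The gene (chr15:40655035-41104592, plus strand) had 3.21 kb covered in CTX, 2.09 kb in MGE, 3.61 kb in CGE and 2.26 kb in LGE, with CTX between LGE and CGE. The peak took in the 5′ end in CTX, CGE and LGE, and in MGE it began 0.134 kb inside the gene. No other peak was found in the 470 kb window in any list.

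Bcl11b, a zinc-finger factor of corticospinal neurons and of the striatal neurons that the LGE produces, was lowest in LGE. The gene (chr12:107910403-108003602, minus strand) had 3.08 kb covered in CTX, 4.78 kb in MGE, 7.39 kb in CGE and 1.56 kb in LGE. CTX was below MGE and CGE and above LGE, by 1.52 kb, but the order of CTX and LGE turned in lists of equal peak number and of equal covered bases, where CTX had 1.30 kb and LGE 1.56 kb. An intronic locus 22.6 to 27.2 kb from the 5′ end made up most of this range, with 1229 bases in CTX, 2150 in MGE, 4566 in CGE and none in LGE. The upstream locus was found in all lists, with 1298, 1934, 1896 and 1254 bases in CTX, MGE, CGE and LGE. With peaks of a q-value under 0.001 alone, CTX had none of Bcl11b covered and LGE had 1.25 kb, so that Bcl11b then counted as lower in CTX.

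Etv1, an ETS factor of deep-layer projection neurons, had the least mark among the 9 genes in CTX. The gene (chr12:38779380-38870484, plus strand) had no covered base in CTX or LGE, 0.712 kb in MGE and 2.73 kb in CGE. CTX and LGE were tied, so the gene counted neither as lower nor as higher. Both loci lay at the start, 1.64 to 0.257 kb upstream in CGE alone and 1.03 to 2.39 kb inside the gene in MGE and CGE. The CGE peak inside the gene had a −log10 q of 4.87, and the other Etv1 peaks had 1.31 and 1.42.

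Bcl11a, a zinc-finger factor related to Bcl11b and present in projection neurons of several layers, had 2.39 kb covered in CTX, 1.00 kb in MGE, 0.355 kb in CGE and 0.786 kb in LGE. CTX held 2.38 times the highest eminence, but every peak was weak, with −log10 q between 1.04 and 1.84, and none in any list had a q-value under 0.001. As large a distance of CTX above the nearest eminence was found in 2.57% of all protein-coding genes and 10.5% of those with long windows. The higher value in CTX was also lost in lists of equal peak number, where CTX had no covered base and MGE and LGE had 1.00 and 0.786 kb. The gene (chr11:24078056-24174123, plus strand) had a locus 5.09 to 3.64 kb upstream in all lists, which lies within the gene A830031A19Rik, and another 1.78 to 2.86 kb inside the gene in CTX alone. The CTX-only locus takes in the start of the transcript Bcl11a-204. The stretch shown from it (chr11:24080103-24080402, plus strand) holds 5 CG, as many as 62.3% of the promoter sequences do.
Bcl11a near start: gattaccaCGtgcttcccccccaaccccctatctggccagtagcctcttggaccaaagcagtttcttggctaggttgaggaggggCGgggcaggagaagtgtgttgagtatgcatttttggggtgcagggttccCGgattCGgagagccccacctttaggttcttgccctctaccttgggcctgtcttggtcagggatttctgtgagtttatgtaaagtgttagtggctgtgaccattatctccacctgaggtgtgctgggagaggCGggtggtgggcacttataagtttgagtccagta

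**Figure D2:**
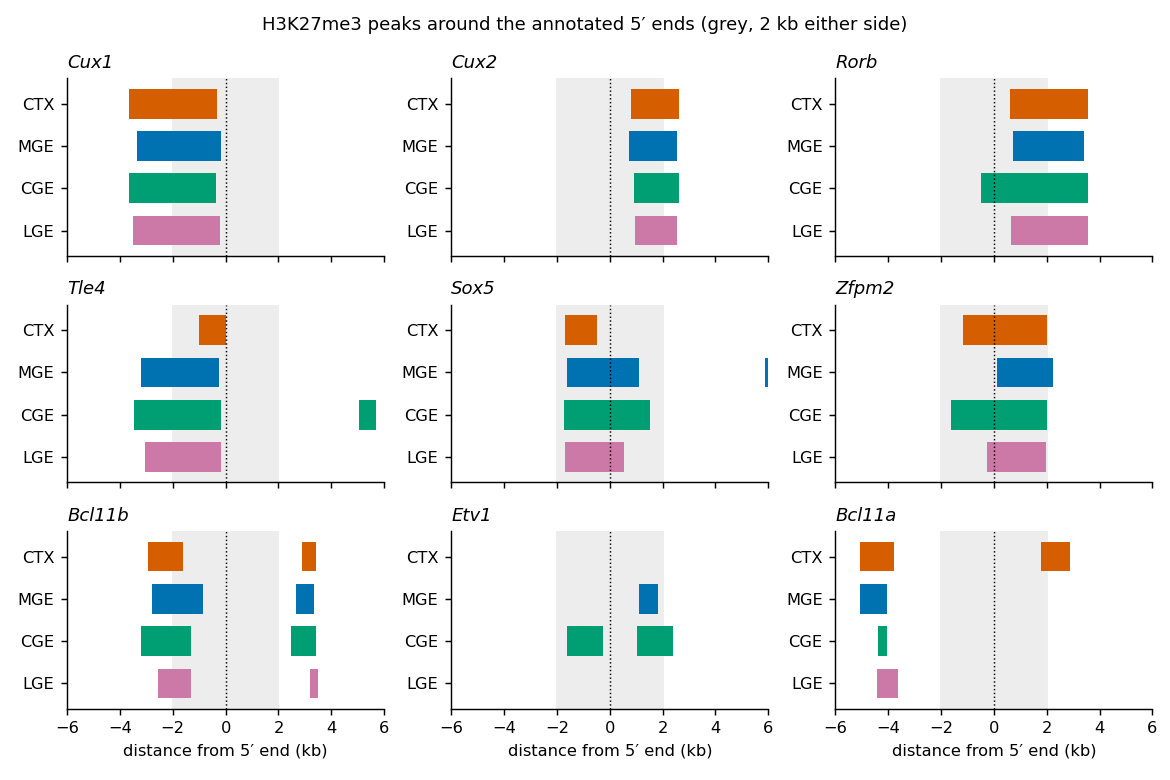
Peaks within 6 kb of the annotated 5′ end of each gene, 1 row per peak list, with distance from the 5′ end along the gene in kb on the horizontal axis; bars are peaks, the dotted line is the 5′ end and grey marks 2 kb either side. The peaks of Cux1 and Cux2 cover much the same stretch in every list, that of Rorb reaches further upstream in CGE and that of Zfpm2 shifts between lists, the CTX peak of Tle4 covers 1015 bases against 2875 to 3312 in the eminences, and the CTX peak of Sox5 ends before the 5′ end.

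A start was counted as covered with at least 1000 of the 4000 bases around the 5′ end under peaks. This held for 6 of 9 genes in CTX, 7 in MGE, 7 in CGE and 6 in LGE, where the shares over all genes were 20.3%, 18.9%, 21.9% and 19.8% and among genes with long windows 38.1%, 36.7%, 41.1% and 37.5%. Cux1, Cux2, Rorb, Tle4, Sox5 and Zfpm2 were covered in all regions, Bcl11b in MGE only, Etv1 in CGE only and Bcl11a in none. By at least 1000 bases, only Sox5 had a start lower in CTX than in every eminence, beside 0.676% of all genes and 2.09% of those with long windows, and none had a higher one, beside 0.915% and 1.66%. By any number of bases, Tle4, Bcl11b and Sox5 were lower, beside 6.26% of all genes and 11.1% of those with long windows, and Bcl11a was higher, beside 12% and 19%. Tle4 had 1015 start bases in CTX and 1738 to 1841 in the eminences, and Bcl11b had 371 in CTX and 684 to 1142 in the eminences. The Bcl11b peak there was cut by the edge of the 2 kb window in every list. Taken whole, it covered 1298 bases in CTX and 1254 in LGE, and it ended 1.63 kb upstream in CTX and 1.317 kb upstream in LGE.

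Over the 9 genes together, 53 loci were found, of which 14 were in all 4 lists, where the share over the 28403 loci of the whole lists was 34%, and 26 were in a single list, where it was 38.7%. At the starts 7 of 10 loci were in all lists, beside 60.8% of all loci that touch the start of a protein-coding gene, and elsewhere 7 of 43, beside 23.6% of those that touch none. The 7 loci of CTX alone (14.9% of all loci) were those of Cux2, 6 in number, and of Bcl11a, and 27 loci were found in some of the eminences without CTX (30.8%). The intronic locus of Tle4 was the only one found in all the eminences without CTX (3.93%). Loci at starts had a higher CG content for their base composition, with a median observed to expected ratio of 0.561 and a range of 0.410 to 0.680, than loci elsewhere, with a median of 0.231 and an overlapping range of 0.051 to 0.588. Away from starts the ratio was similar by its median for loci of CTX alone, 0.210, and for loci of eminences without CTX, 0.218. For the 7 loci there that were in all lists the median was higher, 0.315, with an overlapping range of 0.142 to 0.588. The medians over all peaks of the lists were 0.342 in CTX, 0.383 in MGE, 0.336 in CGE and 0.370 in LGE.

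The covered sequence summed to 35.2 kb in CTX, 35.5 kb in MGE, 64.6 kb in CGE and 27.8 kb in LGE. This was 0.113%, 0.145%, 0.196% and 0.105% of all covered bases of the lists, so CGE was also the highest relative to its list's length. Much of the CGE sum lay in Tle4 and Sox5, with 17.9 and 17.2 kb, where CTX had 1.01 and 5.53 kb. The rank of CGE relative to list length rested on these genes. In lists of equal covered bases the sums were 21.9 kb in CTX, 35.5 kb in MGE, 36.6 kb in CGE and 26.2 kb in LGE, so that CGE then lay close to MGE and CTX was lowest. CGE was highest for 6 genes and CTX for 3, while among the 12122 protein-coding genes with a covered base in any list CGE alone was highest in 42.6% and CTX alone in 30.1%. Introns beyond the start window held 62.2% of the CGE bases, 52.6% of those in CTX, 43.7% in MGE and 40.6% in LGE. The peaks of these genes were of modest strength: their median percentile of −log10 q within the own list was 38.6 in CTX, 37.6 in MGE, 41.2 in CGE and 32.7 in LGE.

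**Figure D3:**
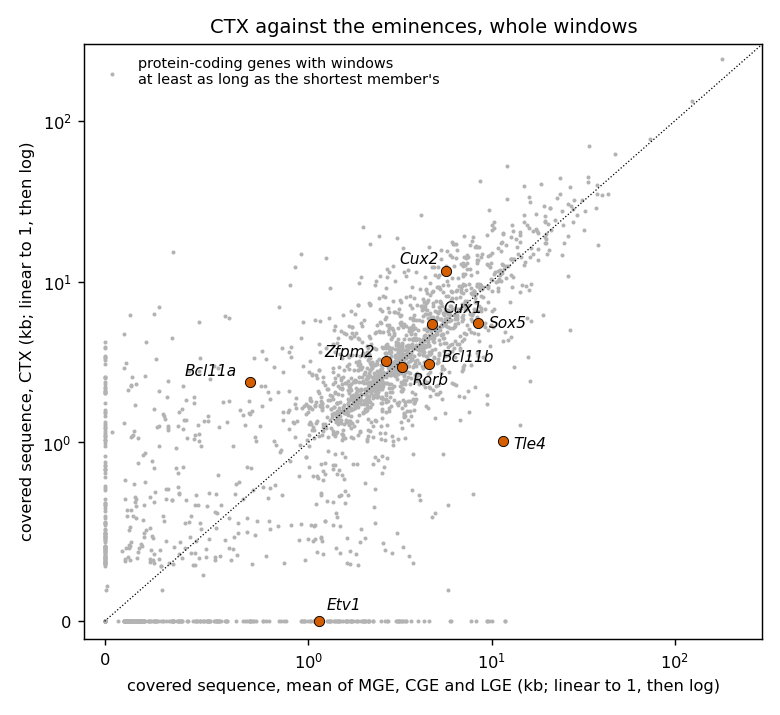
Covered sequence in CTX (vertical axis, kb) against the mean of MGE, CGE and LGE (horizontal axis, kb), both linear to 1 kb and logarithmic above; grey points are the 2769 protein-coding genes with windows at least as long as that of Etv1, orange points are the 9 layer genes, and the dotted line marks equal values. Tle4 lies far below the line (1.01 against 11.5 kb), and Cux2 (11.6 against 5.62 kb) and Bcl11a (2.39 against 0.714 kb) lie above it.

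Other genes that mark layers or classes of projection neurons were read in the same way, from a list of 26. By the rule of 1000 bases 6 were lower in CTX than in every eminence and 5 were higher, beside the 1.83% and 3.72% of all genes given above, and 15 were neither. All 26 had a covered base in some list, as did 55.7% of all genes. On average 12.7% of their windows was covered in CTX, against 3.03% over all protein-coding genes. No share among equally covered genes was computed. Among the lower ones, Nfia, a nuclear factor of progenitors and glia, had no covered base in CTX and 9.44, 9.60 and 11.1 kb in MGE, CGE and LGE. Its relative Nfib had 1.97 kb in CTX and 9.83, 9.79 and 8.69 kb. Fezf2, which specifies subcerebral projection neurons, had 5.52 kb in CTX and 12.1, 12.2 and 11.2 kb. Otx1, Lhx2 and Nr4a2 were the other 3, with 4.51, 7.00 and 7.32 kb in CTX and at least 8.10, 8.82 and 8.77 kb in every eminence.

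Among the higher ones, Lmo4, a LIM-only co-factor, had 14.5 kb in CTX and 0, 0.411 and 2.22 kb in MGE, CGE and LGE. Tshz2, a zinc-finger factor, had 18.977 kb in CTX and 4.41, 10.9 and 8.41 kb. Mdga1, Cdh13 and Ldb2 had 16.9, 7.20 and 1.23 kb in CTX and at most 14.4, 4.46 and 0 kb in any eminence. Of the 15 that were neither, the 6 furthest from the mean of the eminences were Pou3f1, Foxp2, Nxph4, Foxp1, Unc5d and Mef2c. CGE had the highest value in 9 of the 26 and CTX in 10, beside the 42.6% and 30.1% of genes with a covered base given above. Among the former were Foxp2 and Foxp1, with 12.6 kb against 3.99 to 4.61 kb for Foxp2 and 30.9 kb against 10.5 to 18.4 kb for Foxp1.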

How the data were processed

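H3K27me3 CUT&Tag libraries of 11 samples were assigned to the labelled region. The authors mapped reads with Bowtie2 to mm10 (GRCm38), discarded blacklisted reads and Picard duplicates, merged the samples of each region with samtools and called broad peaks with MACS, whose version and control are not given in the sources used here. The deposited lists give a score (not used), a fold enrichment (a ratio over background) and the −log10 of a p-value (not used) and of a q-value. Merging weighs samples by their reads and leaves no replicates.

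Bases under peaks were counted with Python 3.11.15 and NumPy 2.4.6 on chromosomes 1 to 19 and X, leaving out 2, 2, 3 and 4 mitochondrial peaks of CTX, MGE, CGE and LGE. Gene spans came from GENCODE M21, sequence and promoters from RefSeq GRCm38; 8 of the 9 genes matched the promoter table. No peak lay past a chromosome end. The counting was tested on simulated data. The genes and lists were chosen with earlier results of these data known. Named are the 9 genes, layer genes called or among the next 6 by size, genes placed in a region, genes overlapping a window, and the 5 genes nearest to the gene with the largest difference. Alternatives changed the q-value, joining of peaks, list size, window and size of difference, and leaving out each eminence was added after seeing the data.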

Additional observations from a re-analysis of the deposited data

How the results depend on the processing

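Tle4 had less covered sequence in CTX than the mean of the eminences under all 10 alternatives that recomputed it and stayed lower than every eminence in 9, the exception being the window of 2 kb either side of the 5′ end. Cux2 stayed above the mean in 10 and above every eminence in 8. Bcl11a stayed above every eminence in 6, and its difference from the mean turned from 1673 bases to -596 in lists of equal peak number and -334 in lists of equal covered bases. The count of genes lower in CTX, 1, became 2 with q-values under 0.001 and 2 without LGE, Bcl11b being added. The count of genes higher in CTX, 2, became 1 with q-values under 0.001, 1 with equal peak number, 1 with a difference of at least 2000 bases, 0 with equal covered bases and 0 at the 5′ end alone. It rose to 3 with a flank of 20 kb and with any difference of 1 base, Cux1 being added. Without CGE it was also 3, Sox5 being added. The median difference of -0.135 points became -0.239 with equal covered bases, -0.063 without flanks, -7.95 at the 5′ end alone, -0.264 without MGE, 0.150 without CGE and -0.213 without LGE. Of the other layer genes, those higher in CTX numbered 3 with q-values under 0.001, 2 at the 5′ end alone and 10 with any difference of 1 base. Those lower numbered 2 at the 5′ end alone, 8 with any difference of 1 base and 8 without LGE. Starts counted from the 2 kb upstream alone were covered in 4 genes in CTX, 4 in MGE, 5 in CGE and 3 in LGE. Shares over all genes are given above for any difference of 1 base and for the 5′ end alone. For the other alternatives no such share was computed, so those counts have nothing to be set beside. The causes were not tested.

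No paired analysis was possible because peaks were called on merged samples, so no list carries a replicate number, and for the same reason no sample was left out in turn. List length and read number limit what a missing peak means.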

Other observations

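Over the 4 lists, the protein-coding genes whose covered sequence was nearest to that of Tle4 were Sox6, E130114P18Rik, Gm20696, Dach1 and Gm13279, at Euclidean distances of 4.60 to 7.03 kb over 4 values. Sox6, which like Sox5 encodes a SoxD factor, had 2.94 kb in CTX, 10.5 kb in MGE, 19.8 kb in CGE and 9.38 kb in LGE. Dach1 had no covered base in CTX and 8.23, 12.4 and 8.36 kb in MGE, CGE and LGE.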
